A study of Mus musculus with 24 samples.

Results

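The Sonic hedgehog pathway genes described here are Shh, Ptch1, Hhip, Boc, Gas1, Smo, Gli1, Gli2 and Gli3. They were chosen by symbol as the ligand, the receptors, the transducer and the transcription factors of the pathway, and all 9 were found among the 21909 gene symbols of the RNAseq tables. RNAseq was measured in mouse embryonic stem cells (ESCs) and in neural progenitor cells (NPCs) derived from them, as part of a study that mapped nucleolus-associated domains (NADs). Each cell type had 3 samples, which the labels number as replicates. The ESCs were of the line E14, had no treatment, and grew without feeder cells on gelatin with LIF and the 2i inhibitors of MEK and GSK3β. The NPCs were made from E14 ESCs by differentiation as embryoid bodies in medium with fetal calf serum for 8 days, with 2 µM retinoic acid during the last 4 days. The labels name no batch, so cell type cannot be told apart from any difference in the handling of the groups. All values come from bulk polyA-selected RNA, in which fewer cells of a type and less RNA per cell cannot be told apart.

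In this pathway, a secreted ligand such as SHH binds the receptor PTCH1 and thereby lifts its block on SMO, which then signals through the GLI transcription factors at the primary cilium. BOC and GAS1 act as co-receptors, HHIP binds and sequesters the ligand, and Ptch1, Hhip and Gli1 are also transcribed in response to the pathway. In the neural tube, SHH from the notochord and floor plate patterns progenitors along the dorsoventral axis.

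The deposited values are RPKM, that is, reads scaled to the length of the gene and the depth of the library. Low values step in multiples of 1 read, and with the whole gene from first to last base as the length (GENCODE M21, introns included) the values gave back whole reads, within 0.05 reads or 2e-05 of the value, in all 6 samples for 20284 of 21454 genes with a single position (94.5%). All 9 pathway genes were among these. In units of 1000000 reads, ESC replicates 1, 2 and 3 held 34.1, 33.7 and 30.8, while the NPC libraries held 30.2, 27.3 and 32.3 in the same order. P-values below measure the spread between these replicates of 1 cell line. Because the length includes introns, RPKM lowers long genes such as Gli2 and Gli3 against short ones such as Gas1, so levels are compared between genes below as exonic RPKM, for which the recovered reads were divided by the exonic length alone. This scale takes the reads to be exonic: the methods of the study name coverage of exons, yet the length in the RPKM was that of the whole gene, and any reads of introns cannot be told apart. Differences in reads are given as CPM, reads per 1000000 reads of the library.

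ESC replicate 3 stood apart from the other ESC samples. Its log2(RPKM + 1) correlated with ESC replicates 1 and 2 at r = 0.979 and 0.980 across genes, which are not independent replicates, while ESC replicates 1 and 2 correlated at 0.999. ESC replicates 1 and 2 were nevertheless different libraries, with a chi-square of 6.59 per gene between their reads, within the range of 3.32 to 9.48 of the NPC pairs. Relative to ESC replicates 1 and 2, replicate 3 had a median log2 difference in CPM of 0.45 for the 25% of genes with the shortest exonic length and -0.80 for the 25% with the longest. In the 25% groups between them, from shorter to longer, it was -0.04 and -0.37. None of the 9 pathway genes lies among the shortest 25%, and 8 of the 9 had their lowest ESC value in replicate 3, with Shh the exception. In this log2 difference, all of them but Hhip lay below the median of their own length group, from -0.45 for Shh to -1.56 for Gli2. Hhip was at -0.78. For each of the 9 genes, at least 1 difference between the cell types is therefore also given without ESC replicate 3; other values are over all samples unless stated.

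The labels were compared with marker genes. All 10 ESC markers were called lower in NPCs (limma on log2(RPKM + 1), Benjamini-Hochberg adjusted p under 0.05, median log2 difference -4.73), and their summed level was 1751, 1749 and 3655 RPKM in the ESC samples against 10.6, 10.3 and 9.85 RPKM in the NPC samples. Dppa5a made up most of the ESC sums, at 1307, 1294 and 3131 RPKM, and Tbx3 most of the NPC sums, at 7.12, 7.27 and 6.62 RPKM. Of 8 tested NPC markers, 6 were called higher, and Pax6 stood at 1.55, 1.42 and 1.67 RPKM in the NPC samples against at most 0.0167 RPKM in ESCs. Summed markers of other lineages differed in both directions. The 10 mesoderm and mesenchyme markers summed to 76.2, 85.9 and 84.998 RPKM in NPCs and to 1.44, 1.47 and 1.27 RPKM in ESCs, with Twist1 the highest in RPKM at a mean of 24.97 and Col3a1 the highest in recovered reads, while T was at 0.964, 1.04 and 0.869 RPKM in ESCs and, like Mesp1, under 0.1 RPKM in every NPC sample. The 7 endoderm markers summed to 18.9, 20.6 and 19.5 RPKM in NPCs and to at most 0.134 RPKM in ESCs, with Gata6 the highest in RPKM and Afp under 0.1 RPKM. The 7 blood and endothelium markers summed to 13.3, 16.5 and 18.6 RPKM in NPCs against 1.35, 1.31 and 1.02 RPKM in ESCs, with Hba-x the highest in RPKM and Gata1 under 0.1 RPKM, while Pecam1 was lower in every NPC sample than in any ESC sample. In the other direction, the 5 neural crest markers summed to 8.70, 9.06 and 7.94 RPKM in ESCs and to 1.80, 1.79 and 1.68 RPKM in NPCs, with Foxd3 the highest in RPKM and Sox10 under 0.1 RPKM. The 6 neuron markers summed to 11.1, 12.2 and 14.5 RPKM in ESCs and to 6.88, 5.55 and 6.64 RPKM in NPCs, with Tubb3 the highest in RPKM and Rbfox3 under 0.1 RPKM, although 4 of the 6 were called higher and 2 lower on log2 CPM. The part of these cells in the levels of the pathway genes was not tested.

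Of the 9 pathway genes, 8 had all NPC samples above all ESC samples in RPKM, as did 45.5% of the 18360 genes above 0 in any sample; 27.4% of these genes had all NPC samples below all ESC samples, and none of the 9 did. Gli2 was the gene whose groups overlapped. Ptch1, Boc, Gas1, Smo and Gli1 reached 1 RPKM in at least 3 samples and entered the test on log2(RPKM + 1). Shh, Hhip, Gli2 and Gli3 did not, and Boc, Gas1, Smo and Gli1 passed only through the NPC samples, so that they had to differ. Of all 7835 genes tested, 1345 passed in this way. The 5 tested genes were all called higher in NPCs, beside 36.9% of the 7835 genes tested; limma called 0 of the 5 lower, also at an unadjusted p under 0.05, beside 33.3% of all tested genes. Fold changes on this scale understate low genes, so a second test, chosen after seeing the data, used limma on log2 CPM for genes with at least 10 reads in at least 3 samples. It included all 9 genes, called 8 higher, beside 46.0% of 13483 genes, and called 0 lower, also at an unadjusted p under 0.05, beside 27.6%. Shh passed its limit on reads only through the NPC samples, so that it had to differ, as did 1455 of all 13483 genes. Here the median log2 difference over all tested genes was 0.40 (0.29 without ESC replicate 3), against 0.02 on the log2(RPKM + 1) scale.

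**Figure D1:**
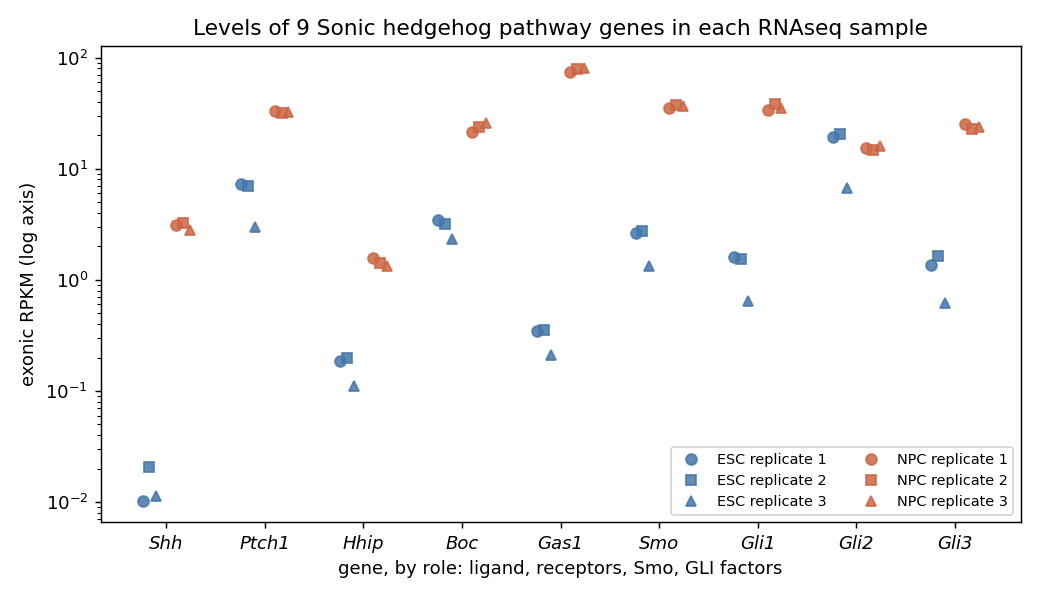
Exonic RPKM on a log axis for each of the 9 genes, ordered by role, with 1 symbol per RNAseq sample (blue ESC, orange NPC). The NPC samples lie above the ESC samples for every gene except Gli2, and ESC replicate 3 is the lowest ESC sample for every gene except Shh.

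Shh, the ligand, was close to the limit of detection in ESCs, with 1, 2 and 1 reads in replicates 1, 2 and 3. The NPC samples had 267, 253 and 257 reads, or 0.848, 0.889 and 0.762 RPKM. The groups were far apart, and the NPC samples were close to each other. CPM over the summed samples was 213-fold higher in NPCs, with an exact 95% interval of 83.0 to 785 that covers counting error only and rests on 4 reads in ESCs. On log2 CPM the difference was 7.33 ± 0.27 (SE; limma, adjusted p = 1.79e-06), and it was 7.25 without ESC replicate 3. As stated above, Shh passed the limit of this test only through the NPC samples, so that it had to differ. The annotation has a gene on the other strand, 9530036O11Rik, over 8983 of the 10442 bases of Shh, and reads of the pair cannot be told apart where strand was not used.

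Ptch1, the receptor that restrains SMO, was measured at 1.57, 1.53 and 0.652 RPKM in ESC replicates 1, 2 and 3. In NPC replicates 1, 2 and 3 it was at 7.23, 6.82 and 7.07 RPKM. Ptch1 was thus present in ESCs and higher in every NPC sample, with the low ESC value in replicate 3. Mean RPKM was 5.63-fold higher in NPCs, or 4.54-fold without ESC replicate 3. The log2(RPKM + 1) difference was 1.87 ± 0.18 (SE; limma, adjusted p = 0.000123), and on log2 CPM it was 2.60 ± 0.34 (SE; limma, adjusted p = 0.000527).

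Hhip, the decoy receptor, was low in both cell types. It had 57, 60 and 31 reads in the ESC samples and 427, 349 and 394 reads in the NPC samples, or at most 0.0193 RPKM and at most 0.154 RPKM. Every NPC sample was higher than every ESC sample. The difference in log2 CPM was 3.16 ± 0.25 (SE; limma, adjusted p = 4.31e-05) and 2.91 without ESC replicate 3.

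The co-receptors Boc and Gas1 differed in their ESC level and in the size of their rise. Boc, a cell-surface protein of the immunoglobulin superfamily, was at 0.206, 0.193 and 0.141 RPKM in ESCs and at 1.28, 1.43 and 1.55 RPKM in NPCs. Its groups did not overlap, and its log2(RPKM + 1) difference was 1.03 ± 0.05 (SE; limma, adjusted p = 4.54e-06). Gas1, which is anchored to the membrane by a lipid, was at 0.347, 0.351 and 0.209 RPKM in ESCs, from 35, 35 and 19 reads. In NPCs Gas1 was at 74.6, 78.3 and 81.3 RPKM, from 6654, 6318 and 7770 reads. All NPC samples were far above all ESC samples, and mean RPKM was 258-fold higher in NPCs, or 224-fold without ESC replicate 3. The log2(RPKM + 1) difference of Gas1 was 5.92 ± 0.09 (SE; limma, adjusted p = 1.69e-07), the 7th largest of the 7835 genes tested. On the same scale Ptch1 was 432nd and Boc 1247th. Boc and Gas1 passed the limit of the test on this scale only through the NPC samples, so that they had to differ there. By log2 CPM the ranks were lower, with Gas1 343rd, Boc 2491st and Ptch1 2798th of 13483 genes.

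On log2 CPM the order of the receptors by size of the difference was Gas1, Hhip, Boc and Ptch1. Gas1 stood at 8.03 ± 0.22 (SE), far above Hhip. Boc at 2.99 ± 0.17 (SE) was not separated from Hhip or from Ptch1 beyond the standard errors. Without ESC replicate 3, Ptch1 at 2.18 ± 0.04 (SE) lay below Boc at 2.82 ± 0.08 (SE). In exonic RPKM, Gas1 was 0.101, 0.109 and 0.0893 times Boc in the ESC samples and 3.51, 3.31 and 3.17 times Boc in the NPC samples. On this scale Boc was the higher of these co-receptors in every ESC sample and Gas1 in every NPC sample, whereas in RPKM as deposited Gas1 was above Boc in every sample of both cell types. Ptch1 was 2.74, 2.57 and 2.24 times Smo in the ESC samples and 0.946, 0.837 and 0.885 times Smo in the NPC samples. With the length of the transcript with the longest coding sequence, Ptch1 at 57.6 to 61.1 was above Smo at 52.3 to 55.8 in NPCs too, so the side of 1 on which this ratio lay in NPCs depended on the length used.

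Smo, the membrane protein that carries the signal into the cell, was at 0.572, 0.597 and 0.291 RPKM in ESC replicates 1, 2 and 3. It was at 7.64, 8.15 and 7.99 RPKM in NPC replicates 1, 2 and 3. No NPC sample came near the ESC range. Mean RPKM was 16.3-fold higher in NPCs, or 13.6-fold without ESC replicate 3, and the log2(RPKM + 1) difference was 2.59 ± 0.10 (SE; limma, adjusted p = 1.45e-06). Smo passed the limit of this test only through the NPC samples, so that it had to differ.

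Gli1, a GLI activator and a transcriptional target of the pathway, was at 0.665, 0.642 and 0.269 RPKM in ESCs. In NPCs it was at 14.0, 15.7 and 14.5 RPKM. Every NPC sample was high and ESC replicate 3 was the lowest. Mean RPKM was 28.1-fold higher in NPCs, or 22.6-fold without ESC replicate 3. The log2(RPKM + 1) difference was 3.38 ± 0.13 (SE; limma, adjusted p = 1.2e-06), the 82nd largest of the 7835 genes tested, while by log2 CPM Gli1 was 1384th of 13483. Gli1 passed the limit of the log2(RPKM + 1) test only through the NPC samples, so that it had to differ there. A gene annotated on the other strand, Gm47200, covers 9584 of the 12093 bases of Gli1, and its share of the reads is unknown where strand was not used.

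Gli2, the main activator among the GLI factors, had 4529, 4746 and 1425 reads in ESC replicates 1, 2 and 3. It had 3184, 2775 and 3541 reads in NPC replicates 1, 2 and 3. In RPKM these were 0.606, 0.641 and 0.211 in ESCs and 0.481, 0.464 and 0.4995 in NPCs. The NPC samples lay between ESC replicate 3 and the other ESC samples, so the groups overlapped. The difference in log2 CPM was 0.15 ± 0.42 (SE; limma, adjusted p = 0.765) over all samples. Without ESC replicate 3 it was -0.37 ± 0.05 (SE; limma, adjusted p = 0.000178), and Gli2 was then called lower in NPCs. A median-ratio scaling of all samples gave -0.06, with no call. Over all samples Gli2 had thus no call in either direction with either scaling, and its call as lower rested on leaving out 1 library.

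Gli3, the GLI factor that is processed to a repressor in the absence of ligand, had 442, 530 and 183 reads in ESCs. In NPCs it had 7352, 5935 and 7325 reads, or 0.914, 0.816 and 0.850 RPKM. The groups did not overlap. The difference in log2 CPM was 4.42 ± 0.35 (SE; limma, adjusted p = 4.64e-05) and 4.00 without ESC replicate 3. Gli3 stayed under 1 RPKM because its gene spans 266792 bases, of which 9589 are exonic.

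**Figure D2:**
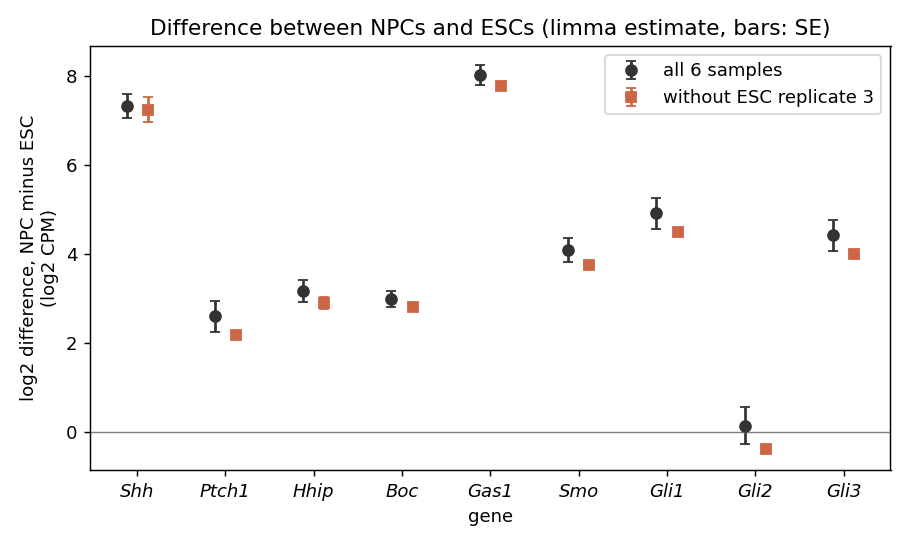
Log2 difference between NPCs and ESCs in CPM for each gene, as the limma estimate with its SE, over all 6 samples (black) and without ESC replicate 3 (orange). All genes but Gli2 lie above 2, and Gli2 moves from 0.15 to -0.37 when ESC replicate 3 is left out.

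The composition of the GLI factors differed between the cell types. In exonic RPKM, Gli2 made up 86.7, 86.5 and 84.1% of the summed level of Gli1, Gli2 and Gli3 in ESC replicates 1, 2 and 3. In the NPC samples Gli2 made up 20.6, 19.6 and 21.3%. On this scale Gli2 was the leading GLI factor in every ESC sample, ESC replicate 3 included, and the smallest of the 3 in every NPC sample. In RPKM as deposited, with introns in the length, Gli1 at 0.665, 0.642 and 0.269 was instead above Gli2 at 0.606, 0.641 and 0.211 in the ESC samples, so the lead of Gli2 in ESCs depended on the length used. Gli1 went from 7.22, 6.57 and 8.12% in ESCs to 45.4, 50.4 and 47.1% in NPCs. Gli3 went from 6.06, 6.92 and 7.74% in ESCs to 34.0, 30.0 and 31.6% in NPCs. The groups did not overlap for any of the 3 shares, and an exact two-sided permutation test gave p = 0.1 for each, the smallest value that 3 against 3 samples allow.

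**Figure D3:**
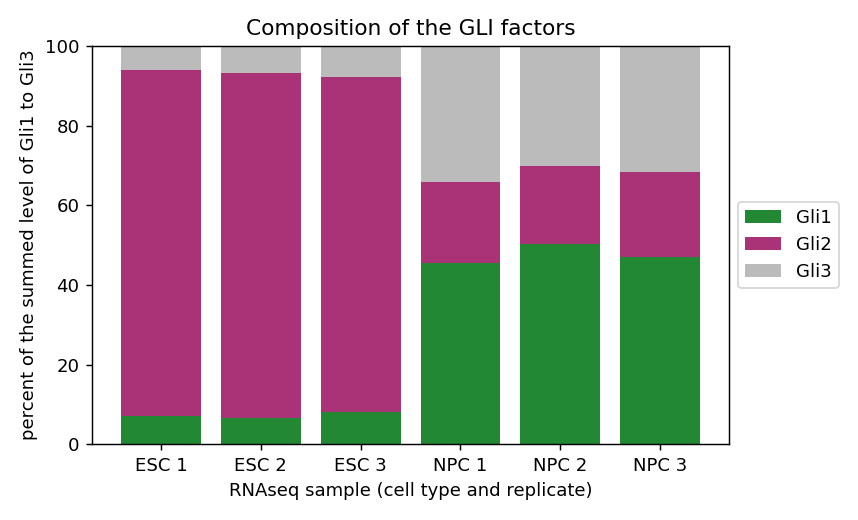
Share of Gli1, Gli2 and Gli3 in their summed level (exonic RPKM) as stacked bars that add up to 100%, for each RNAseq sample. Gli2 takes 84.1 to 86.7% in the ESC samples and 19.6 to 21.3% in the NPC samples.

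The order of levels was taken in exonic RPKM. In ESCs the order from the highest mean was Gli2, Ptch1, Boc, Smo, Gli1, Gli3, Gas1, Hhip and Shh. Gli2 led at 15.5 ± 7.63 (SD, n = 3), and Shh was lowest at 0.0142 ± 0.00578 (SD, n = 3). The sample ranges of each neighbouring pair from Gli2 to Gli3 overlapped, but within each ESC sample the order from Gli2 down to Gli1 was the same. In NPCs the order was Gas1, Smo, Gli1, Ptch1, Gli3, Boc, Gli2, Shh and Hhip. Gas1 led at 78.0 ± 3.37 (SD, n = 3), above Smo at 36.5 ± 1.20 (SD, n = 3). Shh at 3.05 ± 0.237 (SD, n = 3) and Hhip at 1.44 ± 0.111 (SD, n = 3) were the lowest. Smo and Gli1 were not separated, nor were Gli3 and Boc, while the other neighbours had separate sample ranges. With the length of the transcript with the longest coding sequence in place of all exons, Ptch1 moved from place 4 to place 2 in NPCs, Smo at 3.33 came before Boc at 2.99 in the ESC means and in 2 of the 3 ESC samples, and Gas1 in NPCs and Gli2 in ESCs were again first. In RPKM as deposited, Ptch1 was first in ESCs and Gas1 in NPCs.

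Other genes were counted from lists of ligands, receptors, transducers, cilium genes, targets and floor plate genes, and of dorsal neural tube genes, which are not part of the pathway. Of 83 such genes in the tables besides the 9, 39 were tested on log2(RPKM + 1). Of these, 29 were called higher and 4 lower in NPCs, beside 36.9 and 33.3% of all genes tested. Their median log2 difference was 0.82 against 0.02 over all genes tested. Without ESC replicate 3, 30 were called higher and 5 lower, beside 3437 and 3447 of all 7835 genes tested. On log2 CPM, 70 of the 83 were tested. Of these, 59 were called higher and 5 lower, beside 46.0 and 27.6%, with a median of 1.69 against 0.40. Without ESC replicate 3, 60 were called higher and 7 lower on log2 CPM, beside 6991 and 4825 of all 13483 genes tested. Without the dorsal neural tube genes, a count added after seeing the data, 27 of 37 were called higher and 4 lower on log2(RPKM + 1), and 51 of 62 were called higher and 5 lower on log2 CPM, with medians of 0.80 and 1.61. As with the 9 genes, those that passed the low-value limit only through the NPC samples had to differ. These were 17 of the 39 and 12 of the 70, and 15 of the 37 and 7 of the 62 without the dorsal neural tube genes. Among all genes tested they were 1345 of 7835 on log2(RPKM + 1) and 1455 of 13483 on log2 CPM. The shares of all genes called are therefore not a like comparison for these lists.

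Among ligands and the proteins that release them, Ihh, the Indian hedgehog ligand, was at 0.757, 1.03 and 0.979 RPKM in the NPC samples and at most 0.0508 RPKM in ESCs, and Dhh, the Desert hedgehog ligand, was at most 0.0932 RPKM in any sample. Scube3, from a family of secreted proteins that help to release the ligand, was at 0.521, 0.543 and 0.213 RPKM in ESCs and at 5.42, 5.19 and 5.32 RPKM in NPCs, with a log2(RPKM + 1) difference of 2.15. Among receptors besides the 9 genes, Cdon, a paralog of Boc, rose by 2.41 on log2 CPM (limma, adjusted p = 0.00232).

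Of 20 transducers besides the 9 genes, 15 were tested on log2(RPKM + 1), and 12 were called higher and 1 lower, beside 36.9 and 33.3% of all genes tested; 6 of the 15 passed the limit only through the NPC samples. Prkar1a, a regulatory subunit of protein kinase A, rose by 1.04, while Tulp3, which brings receptors into the cilium, fell by 0.61. Of 23 cilium genes in the tables, 9 were tested, 2 of them through the NPC samples only, and 5 were called higher and 1 lower, beside the same shares of all genes. Inpp5e, a phosphatase of the cilium membrane, rose by 1.39 and Kif3a, a subunit of the kinesin motor of ciliary transport, by 1.14, and Mks1, a protein of the transition zone, fell by 1.08.

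Targets of the pathway did not all move with Gli1 and Ptch1. Of 16 targets besides the 9 genes, 11 were tested on log2(RPKM + 1), 5 of them through the NPC samples only, and 8 were called higher and 2 lower, beside 36.9 and 33.3% of all genes tested. Foxf1, a forkhead factor of mesenchyme, was listed at 0 RPKM in all ESC samples and at 29.1, 27.3 and 23.8 RPKM in NPCs. Ccnd2, a cyclin, went from 0.164, 0.136 and 0.0517 RPKM in ESCs to 20.9, 19.5 and 20.3 RPKM in NPCs, a log2(RPKM + 1) difference of 4.25. In contrast, Nkx6-2 fell by 3.48 and Ccnd1 by 0.93 on this scale. Among neural tube targets, Nkx6-1 was at most 0.00474 RPKM in ESCs and at 1.04, 1.19 and 1.19 RPKM in NPCs. It passed the limit of the test only through the NPC samples, so that it had to differ. Its log2(RPKM + 1) difference was 1.09 (limma, adjusted p = 7.4e-07). Olig2 was listed at 0 RPKM in all ESC samples and was at 0.456, 0.845 and 0.743 RPKM in NPCs, under the limit of the test. Nkx2-2 was at most 0.00659 RPKM in any sample. Foxf1 and Foxl1 are also mesenchymal genes, and the summed mesoderm and mesenchyme markers given above moved with them; their part was not tested.

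Of 4 floor plate genes besides Shh, 3 were tested on log2 CPM, 1 of them through the NPC samples only, and 2 were called higher and 1 lower, beside 46.0 and 27.6% of all genes tested. Foxa2 was at 1.13, 1.85 and 1.51 RPKM in NPCs and at most 0.0580 RPKM in ESCs, and it is also a gene of endoderm. Spon1 rose by 4.43 on log2 CPM (limma, adjusted p = 1.4e-05), while Ntn1 fell by 1.86 (limma, adjusted p = 0.000609). Among the 10 dorsal neural tube genes, 8 were tested on log2 CPM, 5 of them through the NPC samples only, and all 8 were called higher. Msx1 was the highest in RPKM, at 3.77, 5.14 and 5.01 in NPCs, while Lmx1a, Gdf7, Wnt3a and Atoh1 were under 0.1 RPKM in every NPC sample. Genes of the floor plate list and of the dorsal list were thus found in the same samples, but the cells that held them were not identified. The summed mesoderm and mesenchyme markers given above were also higher in NPCs, and their part was not tested.

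The genes whose pattern was most like that of a pathway gene were taken by the smallest Euclidean distance in log2(RPKM + 1) over the 6 samples. For Gas1 these were Hoxa5 at a distance of 0.73 and Dlk1 at 0.88. For Smo they were Myh10 at 0.14 and Notch3 at 0.18, and for Gli1 they were Zfp629 at 0.27 and Zyx at 0.32. For Ptch1 they were Smarcc2 at 0.22 and Plxna3 at 0.26, and for Boc they were Dnajb4 at 0.13 and Tgm2 at 0.13. Gas1 had thus no gene as close to it as the other 4 had.

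The positions of the 9 genes on GRCm38 were compared with the deposited lists of 1769 NADs in ESCs and 1447 NADs in NPCs, each with 1 score for joined replicates and no replicate error. Smo (chr6:29735503-29761365) lay wholly inside a NAD in both lists, with a score of 0.0354 in ESCs and 0.0415 in NPCs. Gli3 (chr13:15463235-15730026) was covered over 37.3% of its length in ESCs and 85.9% in NPCs. Hhip (chr8:79965851-80058006) lay wholly inside a NAD of NPCs with a score of 0.0837 and was 165 kb from the nearest NAD of ESCs. The other 6 genes overlapped no NAD in either list, and Shh was 56.6 kb from the nearest NAD in both. In all, 2 of the 9 genes overlapped a NAD in ESCs, beside 26.9% of 21597 placed genes, and 3 of the 9 in NPCs, beside 21.4%. The overlap was not tested against the RNA levels.

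RefSeq promoter windows on GRCm38.p6, from 250 bases before to 50 bases after the RefSeq gene start, were held for Ptch1, Hhip, Gas1, Smo, Gli2 and Gli3. The RefSeq start lay 7863 bases inside the GENCODE gene for Ptch1, 488 bases inside it for Gli3 and 170 bases before it for Gas1, and these 3 windows do not hold the GENCODE start. They were searched on both strands for GACCACCC, the core of the GLI binding motif. None of the 6 windows held it, nor did any of the 15 windows of 12 target genes, which include those of Ptch1 and Hhip, beside 0.807% of all 32851 windows. The shorter CCACCC, its last 6 letters and chosen after seeing the data, was in 4 of the 6 windows, beside 31.5% of all windows. Gli2, whose groups overlapped, held it 2 times, while the windows of Gas1 and Ptch1 did not hold it. A match describes letters only. The windows of Gli2 (chr1:119053570-119053869, minus strand) and Smo (chr6:29735247-29735546, plus strand) are shown to set a gene with no call beside a gene called higher, 5′ to 3′ along the gene, with CCACCC or its reverse complement GGGTGG in capitals.
Gli2: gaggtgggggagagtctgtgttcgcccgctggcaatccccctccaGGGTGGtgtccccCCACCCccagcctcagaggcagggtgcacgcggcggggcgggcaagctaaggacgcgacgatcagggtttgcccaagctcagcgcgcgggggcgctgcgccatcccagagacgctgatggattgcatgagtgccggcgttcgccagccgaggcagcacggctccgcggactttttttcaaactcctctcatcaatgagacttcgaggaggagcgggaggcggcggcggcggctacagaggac
Smo: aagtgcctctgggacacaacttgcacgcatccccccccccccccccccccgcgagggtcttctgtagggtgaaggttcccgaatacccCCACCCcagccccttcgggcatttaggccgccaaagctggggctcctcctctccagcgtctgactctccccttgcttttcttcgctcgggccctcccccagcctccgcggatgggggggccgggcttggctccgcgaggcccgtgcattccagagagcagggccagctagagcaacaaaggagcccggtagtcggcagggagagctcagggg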

How the data were processed

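RNAseq of 3 ESC and 3 NPC samples was used, grouped by the sample labels. The authors used SortMeRNA 2.1 against rRNA, Trimmomatic 0.36 for trimming and STAR 2.4.0.1 for alignment (mm10), and deposited RPKM per gene; their methods name coverage of exons by a custom pipeline, while annotation, use of strand and treatment of multi-mapping reads are not stated. For the library kit, the labels name TruSeq RNA, which does not mark strand, and the methods a stranded TruSeq kit, so the limit from antisense genes was kept. The NAD lists hold a score per domain that the authors derived from H2B-Dam-NoLS over H2B-Dam. NAD starts count from 0 and are printed 1 higher.

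Of 22064 table lines, the line with the highest mean was kept for each of 153 repeated symbols. The test was the moderated linear model of limma 3.58.1 (R 4.3.3, with an intensity trend) on log2(RPKM + 1) for genes with at least 1 RPKM in at least 3 samples, and on log2 CPM with a prior count of 0.5, with Benjamini-Hochberg adjustment over all tested genes; a call is an adjusted p under 0.05. Reads were recovered from RPKM with the gene length and the library size that gave whole numbers; the length that did so includes introns. The fits were tested on simulated data. Tables were made in Python 3.11.15 with pandas 2.3.3, numpy 2.4.6 and scipy 1.17.1, and figures with matplotlib 3.10.9.

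The 9 genes and all gene lists were chosen with earlier results of these data known. Named genes were all of the 9, any gene of a list of 10 or fewer genes, and of longer lists the 4 largest rises and 4 largest falls among calls. Olig2, Nkx6-1 and Nkx2-2 were named after their values were seen. Some listed genes enter the counts but are not reported here by name. Alternatives were other pseudocounts, low-value limits, scalings and variance models, the replicate number as a block, each sample left out, summed symbol lines, NAD overlap by gene start and other motif lengths.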

Additional observations from a re-analysis of the deposited data

How the results depend on the processing

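The counts of genes depended on the limit for low values. Without a limit, 7245 genes were called higher and 4209 lower in NPCs, 8 of the 9 pathway genes were called higher, and so were 65 other listed genes. With at least 0.1 RPKM in at least 3 samples, 5420 genes, 8 of the 9 and 57 others were called higher. On recovered reads, chosen after seeing the data, these counts were 6205, 8 and 59. Main counts were 2894 higher and 2606 lower, 5 and 29; the alternatives test more genes.

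Median-ratio scaling moved the median of all genes from 0.02 to 0.17 and the calls to 3382 higher and 2067 lower, and quantile normalization to -0.06, 2670 higher and 2991 lower. Leaving out 1 sample gave 2517 to 3437 genes called higher and 2093 to 3447 lower, 27 to 30 other listed genes higher and 4 to 5 lower; 5 of the 9 were called higher each time. Of the log2 differences of single members, 172 of the alternatives kept direction and side of the threshold. The 2 that reversed, both chosen after seeing the data, were for Gli2 on reads, at -0.37 without ESC replicate 3 and -0.0568 with median-ratio scaling (main 0.15); the cause was not tested. Gene start inside a NAD held for 1 of the 9 genes in ESCs and 2 in NPCs, beside 23.4 and 18.7% of placed genes. CCACCC, chosen after seeing the data, was in 4 of the 6 windows of the 9 genes and 7 of the 15 of targets, that of Hhip in both.

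With the replicate number as a block, 2754 genes were called higher and 2460 lower. Deviations of same-numbered samples correlated at 0.11, -0.08 and 0.03, so the numbers do not pair the samples. Depth limits Shh in ESCs, which rests on 4 reads.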
